A study of Mus musculus with 208 samples.

Results

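The genes described here are 40 genes of the NF-kB pathway and of the acute inflammatory response, taken by symbol from the deposited count tables of 4 mouse brain regions. They comprise 5 NF-kB subunits, 4 members of the IkB family, 5 feedback inhibitors, 9 receptors and adaptors, 8 cytokines and chemokines, 4 transcription and stress factors and 5 effectors. The tables list 46403 genes, and a member was kept if its total count exceeded 10 in at least 1 region. All 40 passed in at least 1 region, with 39 in the hypothalamus, 36 in the hippocampus, 35 in the prefrontal cortex (PFC) and 36 in the striatum.

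Nuclear RNA of NeuN+ nuclei was sequenced from adult C57BL/6NTac mice in 208 libraries of 4 regions, which carry 71 distinct replicate labels, each read here as 1 animal. Gestational exposure was by maternal minipump, with morphine given at a daily 10 mg/kg or saline in its place. The pups, raised by drug-naive surrogate dams, were then injected with morphine at 10 mg/kg or saline 2 times daily from postnatal day 1 to 14. In adulthood the offspring received lipopolysaccharide (LPS), a component of the outer membrane of Gram-negative bacteria, at 2 mg/kg or saline, and tissue was collected 2 h later. In SAL-SAL animals both exposure and challenge were saline, MOR-SAL animals had morphine then saline, SAL-LPS animals saline then LPS, and MOR-LPS animals morphine then LPS. In that order the groups held 11, 14, 12 and 14 libraries in the hypothalamus, 13, 12, 14 and 16 in the hippocampus, 10, 12, 10 and 16 in the PFC, and 13, 8, 15 and 18 in the striatum. A replicate label is a pair of numbers such as 15-3, and libraries that share the first number are called a number group below. What the first number marks is not given in the labels. The 18 number groups hold 1 exposure each, and 17 of them 1 labelled sex, and their number differs from that of the litters the study describes. Exposure was systemic and assigned by dam, and several animals came from 1 litter, so animals of a group may not be independent of each other. About 5000 nuclei were sorted per library on NeuN, a neuronal nuclear protein, and the RNA of non-neuronal nuclei that passed the gate is counted with that of neurons.

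NF-kB is a family of dimeric transcription factors that IkB proteins hold in the cytoplasm of resting cells. LPS is bound by CD14 and TLR4, whose adaptor MyD88 relays the signal to the IkB kinase. The kinase marks IkB for degradation, and NF-kB enters the nucleus and induces cytokines, chemokines, adhesion molecules and inhibitors of its own pathway, among them IkB-alpha (Nfkbia) and A20 (Tnfaip3). In the brain the receptors for LPS are known mainly from microglia and from cells of the vessels and meninges, and neurons are known to carry NF-kB subunits at low activity.

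The sequence that NF-kB binds, the kB consensus, was looked for by name on both strands in the 250 bases before the start site of each gene, using the RefSeq promoter table of build GRCm38.p6. The table held 29 of the 40 members, and 11 of these 29 (37.9%) had at least 1 match in any of their promoters, compared with 1204 of 27025 genes in the whole table (4.46%). Counted by promoter, 13 of the members' 34 had a match (38.2%), compared with 1281 of 32851 (3.9%). A match is a description of letters and not a binding site. Among the members that changed in at least 1 comparison below, 13 were in the table and 6 had a match. Their matches are shown because they carry the pathway's own sequence in genes whose counts are described below. They were chosen after the values had been seen. Each is printed 5′ to 3′ on the strand of the gene, with the match in capitals and 9 bases on either side.
Cxcl1: ctgtactccGGGAATTTCCCtggcccgga
Cxcl2: ctgagctcaGGGAATTTCCCtggtccccg
Cxcl10, upstream match: gaggggagaGGGAAATTCCaagttcatg
Cxcl10, downstream match: ggtttacagGGGACTTCCCtcgggttgc
Nfkbia: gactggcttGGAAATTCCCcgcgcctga
Nfkbie: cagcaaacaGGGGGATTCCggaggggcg
Tlr2: aggacacctGGGGAATTCCCacacggagc
The Cxcl1 window lies on the plus strand at chr5:90891165-90891193, with the match 71 to 61 bases before the start site, and the Cxcl2 window at chr5:90903793-90903821, with the match 97 to 87 bases before it. These neighbouring chemokine genes have the same capitals. The Cxcl10 windows lie on the minus strand at chr5:92349030-92349057 and chr5:92348974-92349001, with matches 159 and 103 bases before the start site. The Nfkbia window lies on the minus strand at chr12:55492658-55492685, 29 bases before the start site, the Nfkbie window on the plus strand at chr17:45555585-45555612, 106 bases before it, and the Tlr2 window on the minus strand at chr3:83841762-83841790, 173 bases before it. For Lcn2 and Icam1, described at length below, the same 250 bases held no match, which says only that these letters are not in that window.

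Hypothalamic libraries held 7673 to 35077048 counts (median 5543589), hippocampal libraries 227025 to 24071488, PFC libraries 3056648 to 21988203 and striatal libraries 5954700 to 92945090. In these regions 3, 2, 3 and 0 libraries fell under 0.5 of the region's median total, and 3, 4, 2 and 0 libraries went against their labelled sex, with summed Y-linked genes above 10 CPM under a female label or below 10 CPM under a male one. Of 6 neuronal markers, Nefl was at 0 in every library of the hippocampus, PFC and striatum, and the other 5 had region medians of at least 61.8 CPM. The summed level of 12 microglial markers, in CPM (counts scaled to library size), exceeded 2 times the region's median in 10 hypothalamic, 3 hippocampal, 13 PFC and 15 striatal libraries. These libraries were spread unevenly over the groups. MOR-LPS held 6 of the 10 in the hypothalamus, all 3 in the hippocampus, 7 of the 13 in the PFC and 9 of the 15 in the striatum, and MOR-SAL held 0, 0, 1 and 1. The calls of members are therefore also given without them. In nuclear RNA of sorted cells, fewer nuclei of a type and less RNA per nucleus cannot be told apart.

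**Figure D1:**
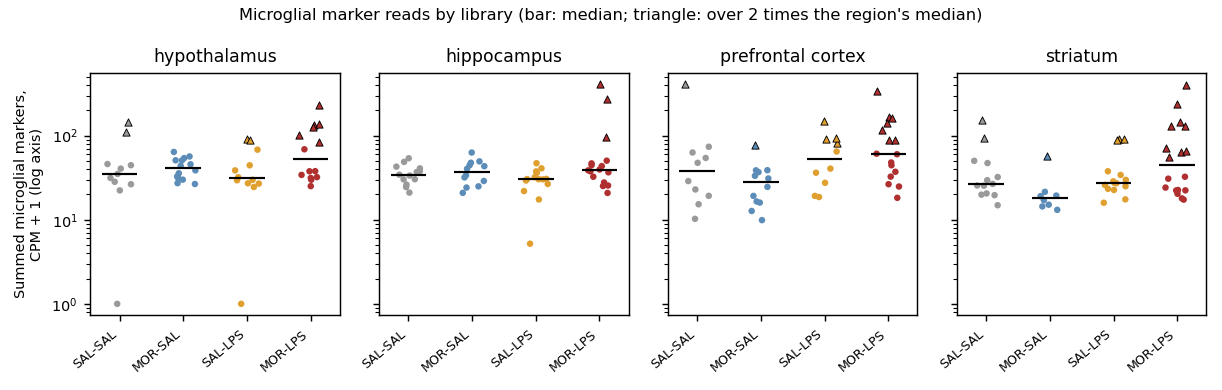
Summed CPM of the 12 microglial marker genes in each library, by region and group on a log axis of CPM + 1, with each point 1 library, the bar the group median and a triangle for a library over 2 times the region's median. The MOR-LPS triangles number 6 (hypothalamus), 3 (hippocampus), 7 (PFC) and 9 (striatum).

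Levels of the members varied widely. Of the members, 0 hypothalamic, 4 hippocampal, 3 PFC and 12 striatal ones had reads in every library of the region, and 15, 17, 18 and 10 in fewer than 0.5 of them. Per kilobase of exon, the 3 most abundant members were taken by their mean over all libraries of a region, challenged ones included. In the hypothalamus these were Nfkbia, the inhibitor IkB-alpha, at a mean of 12.1 ± 9.61 CPM per kb (SD, n = 51), Rela, the p65 subunit, at 9.10 ± 3.36, and Tnip1, a partner of A20, at 7.35 ± 2.90. In the hippocampus they were Ripk2, the kinase of the NOD receptors, at 11.4 ± 2.30 (n = 55), Nfkbia at 7.53 ± 7.36 and Nfkb1, the p105/p50 subunit, at 7.39 ± 1.64. In the PFC they were Tnip1 at 8.60 ± 3.32 (n = 48), Nfkbia at 7.83 ± 8.18 and Rela at 7.60 ± 3.88. In the striatum they were Ripk2 at 8.52 ± 1.59 (n = 54), Nfkbia at 7.38 ± 7.82 and Nfkb1 at 7.00 ± 1.40. Within each region the values of these 3 genes overlap widely, and Nfkbia had the largest spread of the 3. Its mean lay above its median, at 19.6 against 14.6 CPM in the hypothalamus and 12.1 against 8.36 CPM in the hippocampus. In the PFC these were 12.6 and 10.2 CPM, and in the striatum 11.9 and 7.46 CPM. The ranks use means, which high libraries raise.

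By group, striatal Nfkb1 ran from 42.5 to 92.2 CPM in SAL-SAL (median 82.1), from 69.0 to 99.98 in MOR-SAL (84.0), from 50.7 to 123.8 in SAL-LPS (90.6) and up to 110.4 in MOR-LPS (89.2). Hippocampal Ripk2 had group medians of 36.4 CPM in SAL-SAL, 32.6 in MOR-SAL, 31.0 in SAL-LPS and 31.4 in MOR-LPS. Hypothalamic Rela had medians of 32.0, 23.0, 31.3 and 24.8 CPM in the same order, and PFC Tnip1 22.7, 27.3, 32.9 and 32.3. Hypothalamic Tnip1 had medians of 27.0, 26.9, 23.0 and 24.5 CPM, hippocampal Nfkb1 96.2, 85.4, 83.2 and 94.2, PFC Rela 15.9, 24.1, 21.3 and 21.6, and striatal Ripk2 24.1, 25.6, 25.1 and 22.9. None of these 8 was called in any comparison, and the groups overlap in each. Nfkbia varied more. Its medians in the same order were 7.04, 9.23, 8.67 and 8.66 CPM in the hippocampus, 12.8, 11.0, 5.09 and 10.3 in PFC libraries and 7.55, 5.11, 5.91 and 11.4 in striatal ones, and MOR-LPS held its highest library in each, at 68.6, 81.4 and 66.1 CPM. Its hypothalamic values are given with its call below.

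The cytokines and chemokines other than Ccl5 were toward the other end. By mean CPM per kb, Ccl5 ranked 7 in the hypothalamus (3.08) and 9 in the hippocampus (2.06). It ranked 10 in the PFC (2.03) and 8 in the striatum (2.18). Il6 was listed at 0 in every hypothalamic library and had total counts of 5, 5 and 13 in the hippocampus, PFC and striatum. Ccl2, Cxcl10 and the adaptor Myd88 were listed at 0 in every library of the hippocampus, PFC and striatum. In the same tables P2ry12, Gfap and Nefl, which microglia, astrocytes and neurons respectively are known to express strongly, were also at 0 in every library, so these zeros are not read as absence of the RNA. In the hypothalamus Myd88 had reads in 44 of 51 libraries.

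In the following, levels are CPM with TMM-adjusted library sizes, log2 fold changes (log2FC) and their standard errors (SE) are from edgeR's quasi-likelihood fit of each region, and a gene was called at a Benjamini-Hochberg adjusted p under 0.05 over all genes tested. On simulated counts this fit gave too many small p-values for genes with reads in few libraries. For each called member a permutation test on log2(CPM + 0.5) over libraries was also run, 29 in all, two-sided. These p-values were not adjusted for the number of tests, and relabelling was free across sex and number groups. The fitted log2FC of a gene that is at 0 in 1 group depends on the fit's prior count, so for members called between 2 groups the bound that 3 counts in that group allow is given beside it. A member whose reads lie nearly all in the higher group passed the count filter through that group alone and had to differ, which holds for 2 calls, hypothalamic Cxcl2 and PFC Msr1. In every call listed below the values of the 2 groups overlap. The exons of 13 members overlap those of another gene, and 7 of these were called (Bcl3, Cebpb, Cebpd, Cxcl10, Icam1, Stat3 and Vcam1). The use of strand in counting is not given in the sources used here, so reads of such neighbours cannot be told apart.

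The first comparison asks what LPS did without morphine. In the hypothalamus 1 of 39 members was called higher in SAL-LPS compared with SAL-SAL, where 0.0693% of all 28859 genes tested were called higher and 0.177% lower. That member was Lcn2, which encodes lipocalin 2, a secreted protein that binds bacterial siderophores and is known as a marker of brain inflammation (ENSMUSG00000026822.14, chr2:32384633-32388252, minus strand, mm10). In SAL-SAL 10 of 11 libraries were at 0 and the highest at 0.367 CPM, whereas SAL-LPS libraries ran from 0 to 9.65 CPM with a median of 1.82 and 5 of 12 at 0. The log2FC was 5.63 (SE 1.22, adjusted p = 0.0322, permutation p = 0.00704). Pooled over libraries, the level was 57.0-fold higher, with a counting interval of 19.3 to 278 because SAL-SAL held only 3 reads. Msr1, the macrophage scavenger receptor, was at 0 in all 11 SAL-SAL libraries and reached 9.39 CPM in SAL-LPS, with 6 of 12 at 0, and missed the threshold (adjusted p = 0.0540). The SAL-LPS zeros of low genes include replicate 1-4, a library of 7673 counts in which 1 read is 53.9 CPM. Over the 39 members the median log2FC was 0.70, or 0.59 with members at 0 in 1 group set to their bound, and that of all genes tested was 0.07. The call for Lcn2 was lost when number group 3, 5 or 10 was left out, and remained without the libraries high in microglial markers (log2FC 5.75, adjusted p = 0.0465), where 0.333% of all genes were called.

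After perinatal morphine, edgeR called 12 of 39 members higher and 0 lower in the hypothalamus (MOR-LPS vs MOR-SAL), against 4.1% of all genes called higher and 2.17% lower. Of the 12, 9 also had a permutation p under 0.05. These genes had been picked by their calls in the same libraries, so this is no separate support. For the chemokines Ccl2, Cxcl10 and Cxcl2 a rise was not shown over animals. Cxcl2 passed the count filter only through MOR-LPS, and without it the calls are 11. With the number group as a block 3 of the 12 were called again, and in limma-voom 4. The 12 were 4 of the 5 effectors, 4 of 7 cytokines and chemokines tested (1 by the permutation test), 2 of 4 transcription and stress factors, 1 of 9 receptors and adaptors and 1 of 4 IkB family members, and 0 of 5 subunits and 0 of 5 feedback inhibitors. The median log2FC of the members was 1.25, unchanged with the bounds, and that of all genes tested was 0.00.

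Among the effectors, Lcn2 had the smallest adjusted p. In MOR-SAL 13 of 14 libraries were at 0 and the highest at 1.56 CPM, and in MOR-LPS 10 of 14 had reads, with a median of 7.16 and a highest of 35.7 CPM. Its log2FC was 6.37 (SE 1.00, adjusted p = 7.64e-05, permutation p = 0.00014). The other effectors are surface proteins. Icam1, the adhesion molecule that binds leukocyte integrins, ran from 0 to 2.16 CPM in MOR-SAL with a median of 0 and from 0 to 24.5 CPM in MOR-LPS with a median of 2.90 (log2FC 3.49, SE 0.95, adjusted p = 0.0194, permutation p = 0.00134). Vcam1, the vascular adhesion molecule that binds integrin alpha-4, had a median of 0.372 and a highest value of 2.43 CPM in MOR-SAL and 5.47 and 23.5 CPM in MOR-LPS (log2FC 2.98, SE 0.82, adjusted p = 0.0199, permutation p = 0.00142). Msr1 was at 0 in all 14 MOR-SAL libraries and in 8 of 14 MOR-LPS libraries, and reached 5.93 CPM in the other 6, at least 31.6-fold higher when pooled (log2FC 5.07, SE 1.16, adjusted p = 0.00795, permutation p = 0.0155). Within the morphine groups, reads of Msr1 were thus limited to 6 MOR-LPS libraries, while Lcn2 had reads in 10.

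Cd14, the co-receptor that passes LPS to TLR4, was the receptor that rose. It was at 0 in all 14 MOR-SAL libraries, and 9 of 14 MOR-LPS libraries had reads, with a median of 0.994 and a highest of 9.17 CPM. Pooled, this is at least 52.4-fold higher (log2FC 6.55, SE 1.16, adjusted p = 0.000563, permutation p = 0.00044). In the saline-exposed groups Cd14 had reads in 2 of 11 SAL-SAL and 6 of 12 SAL-LPS libraries, with highest values of 0.599 and 5.05 CPM.

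Nfkbia, whose promoter match is shown above and which NF-kB is known to induce within an hour, was the 1 of the 12 with reads in nearly all libraries. It ran from 3.75 to 16.0 CPM in MOR-SAL with a median of 9.88, and from 3.39 to 84.9 CPM in MOR-LPS with a median of 24.4 (log2FC 1.54, SE 0.31, adjusted p = 0.00191, permutation p = 0.00102). In SAL-SAL it ran from 9.01 to 41.0 CPM (median 17.3) and in SAL-LPS from 0 to 45.1 CPM (median 13.6). The 0 is from SAL-LPS replicate 1-4, a library of 7673 counts in which 1 read is 53.9 CPM. MOR-SAL was thus the lowest of the 4 groups by median and MOR-LPS the highest, with overlapping ranges.

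Of the transcription factors, Cebpd (C/EBP-delta, an acute-phase regulator) had a median of 0.178 and a highest value of 4.54 CPM in MOR-SAL and 7.27 and 15.1 CPM in MOR-LPS (log2FC 3.42, SE 0.90, adjusted p = 0.0157, permutation p = 0.00024). Cebpb (C/EBP-beta) was at 0 in 12 of 14 MOR-SAL libraries, with a highest value of 0.524 CPM, and in MOR-LPS it reached 5.19 CPM with a median of 0.261 (log2FC 3.83, SE 1.08, adjusted p = 0.0234, permutation p = 0.00758). Both factors are themselves known targets of inflammatory signaling. SAL-LPS medians were 0.974 CPM for Cebpd and 0 for Cebpb.

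The 4 chemokines that were called rested on few reads. Cxcl1, a neutrophil attractant, was at 0 in all MOR-SAL libraries and had 38 reads over 7 of 14 MOR-LPS libraries, up to 2.49 CPM, at least 12.1-fold higher (log2FC 4.49, SE 1.04, adjusted p = 0.00777, permutation p = 0.00588). One animal, replicate 16-4, gave 19 of these reads. Ccl2, the monocyte attractant, had 29 reads in 4 of 14 MOR-LPS libraries, 65.5% of them from the same animal, and was at least 9.27-fold higher (log2FC 3.44, SE 0.92, adjusted p = 0.0198). Cxcl10, an interferon-induced chemokine, had 46 reads in 3 libraries, 84.8% of them from replicate 14-4 (at least 14.7-fold, log2FC 4.62, SE 1.25, adjusted p = 0.0221). Cxcl2, a neutrophil attractant, had 24 reads in 3 libraries, 79.2% of them from that animal (at least 7.67-fold, log2FC 3.62, SE 0.99, adjusted p = 0.0267). As the other 3 groups held 0 reads of Cxcl2, it passed the count filter only through MOR-LPS. The permutation tests gave p = 0.095 for Ccl2, 0.221 for Cxcl10 and 0.220 for Cxcl2, so the rise of these 3 was not shown over animals. The calls were also lost without number group 6 or 16 for Ccl2 and Cxcl2 and without 14 or 15 for Cxcl10, and without 14 Cxcl2 had too few reads left to be tested.

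**Figure D2:**
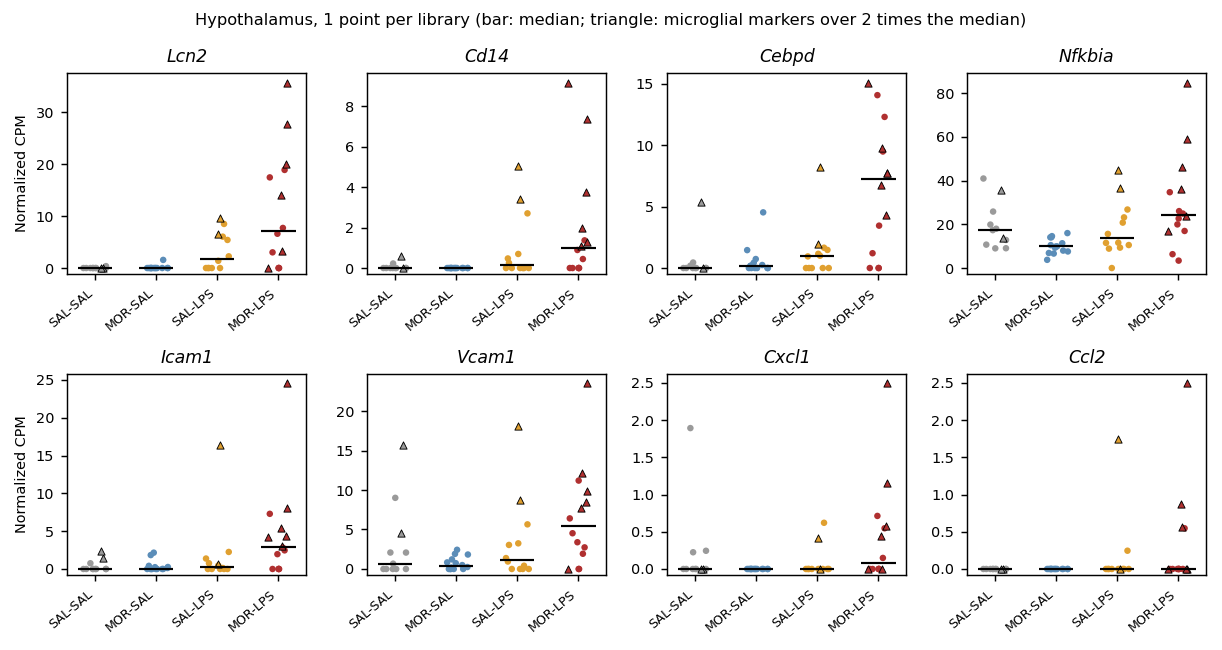
Normalized CPM of Lcn2, Cd14, Cebpd, Nfkbia, Icam1, Vcam1, Cxcl1 and Ccl2 in each hypothalamic library by group on a linear axis, with each point 1 library, the bar the group median and triangles for libraries high in microglial markers. Lcn2 has a median of 7.16 CPM in MOR-LPS and 0 in MOR-SAL, Cebpd 7.27 and 0.178, and Nfkbia 24.4 and 9.88.

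Summed markers of other cells, apart from choroid plexus, also had higher medians in hypothalamic MOR-LPS than in MOR-SAL libraries, with overlapping ranges. Summed microglial markers ran from 25.6 to 63.0 CPM in MOR-SAL (median 40.3) and from 24.1 to 233 CPM in MOR-LPS (median 52.3). Medians of summed astrocyte markers were 222 and 422 CPM, of pericyte markers 6.53 and 23.4 CPM and of infiltrating myeloid markers 3.13 and 12.5 CPM, in the same order. Those of endothelial markers were 23.3 and 30.6 CPM, of oligodendrocyte markers 350 and 536 CPM, of choroid plexus markers 12.7 and 12.0 CPM, of glucocorticoid response genes 279 and 438 CPM and of neuronal markers 2459 and 2314 CPM. Over all hypothalamic libraries 1 gene had most of the median level in the astrocyte, endothelial and pericyte lists. These genes were Aldoc (178 CPM), Tek (15.2) and Pdgfrb (5.13). The next highest were Slc1a3 (16.4), Slco1c1 (1.53) and Vtn (0.798). Of the 10 infiltrating myeloid markers, Ly6g was at 0 in all 51 hypothalamic libraries and Ccr2, Ly6c2, S100a8, S100a9 and Mrc1 in 50, 48, 46, 47 and 34, whereas Lyz2, Ptprc, Csf3r and Cd163 were at 0 in 9, 20, 21 and 23. The sum over the 10 ran from 1.69 to 9.97 CPM in MOR-SAL and from 1.96 to 73.5 CPM in MOR-LPS. Oligodendrocyte markers reached 690 CPM in MOR-SAL and 6820 CPM in MOR-LPS. The hypothalamic libraries high in microglial markers held 635 to 7467 CPM of oligodendrocyte markers and 450 to 1129 CPM of astrocyte markers. Outside them the highest values were 2607 CPM, in the library of 7673 counts, and 523 CPM. These libraries are thus not high in microglial markers alone. Without the 10 libraries high in microglial markers, 3 of the 12 members were still called, Lcn2 (log2FC 5.32, adjusted p = 0.00331), Cebpb (4.48, 0.0299) and Cd14 (3.91, 0.0495), where that fit called 2.01% of all genes in either direction. Of those no longer called, Vcam1 had a log2FC of 2.61 and Cebpd of 2.56, against 2.98 and 3.42 with all libraries. Icam1 had 2.45, Cxcl1 2.34, Cxcl10 1.45 and Nfkbia 0.81, against 3.49, 4.49, 4.62 and 1.54. Msr1 had no reads left in either group, and Ccl2 and Cxcl2 had too few left to be tested. Fewer libraries entered this fit.

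Within MOR-LPS, Msr1 was at 0 in all 8 hypothalamic libraries up to 2 times the median of microglial markers and ran from 0.679 to 5.93 CPM in the 6 above it. Cd14 ran from 0 to 1.37 CPM in the 8 and from 1.10 to 9.17 CPM in the 6. Lcn2 ran from 0 to 18.9 CPM in the 8 (median 4.81) and from 0 to 35.7 CPM in the 6 (median 17.1), and all its values above 18.9 CPM were in the 6. Nfkbia had medians of 21.3 CPM in the 8 and 41.3 CPM in the 6, and Cebpd 2.33 and 7.76 CPM. Which nuclei these reads came from was not tested.

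In the hippocampus 4 of 36 members were called in SAL-LPS compared with SAL-SAL, 3 higher and 1 lower, where 1.33% of 22076 genes were called higher and 1.22% lower. The median log2FC was 0.16 over the members and 0.00 over all genes. Stat3, the transcription factor that relays IL-6 family signals, was abundant and ran from 21.9 to 56.5 CPM in SAL-SAL (median 39.3) and from 23.6 to 223 CPM in SAL-LPS (median 60.9), a log2FC of 1.02 (SE 0.24, adjusted p = 0.0268, permutation p = 0.00534). It was the only call in the hippocampus among genes with reads in every library. Msr1 had reads in 2 of 13 SAL-SAL libraries, up to 0.169 CPM, and in 8 of 14 SAL-LPS libraries, up to 2.13 CPM (log2FC 4.76, SE 1.21, adjusted p = 0.0292, permutation p = 0.00478). Bcl3, a nuclear IkB protein that acts with p50 and p52, had 1 read in SAL-SAL and 214 in SAL-LPS, up to 12.9 CPM (log2FC 5.90, SE 1.34, adjusted p = 0.0268, permutation p = 0.00756). A single animal, replicate 1-4, held 79.4% of the Bcl3 reads, and the call was lost without number group 1 or 3. Summed infiltrating myeloid markers had medians of 2.13 CPM in SAL-SAL and 7.63 CPM in SAL-LPS, and reached 11.0 and 36.5 CPM. In the same order medians were 33.4 and 29.4 CPM for microglial, 96.8 and 116 CPM for astrocyte and 371 and 320 CPM for oligodendrocyte markers. The part of these cells in the calls was not tested.

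Nfkbie, the inhibitor IkB-epsilon, fell in hippocampal SAL-LPS. Of 13 SAL-SAL libraries 8 had reads, with a median of 0.200 and a highest of 1.77 CPM, and of 14 SAL-LPS libraries 2 had reads, up to 0.223 CPM. The log2FC was -3.76 (SE 1.07, adjusted p = 0.0401, permutation p = 0.00476). It is a low gene, and the call held in 9 of the 18 fits that left out 1 number group each. MOR-LPS libraries held 87 reads in 10 of 16 libraries, and Nfkbie was the 1 of 36 members called between MOR-LPS and SAL-LPS in the hippocampus, where 2.73% of all genes were called (log2FC 3.57, SE 1.01, adjusted p = 0.0398, permutation p = 0.00612). That call held in 6 of the 18 fits. Without the 3 libraries high in microglial markers the call between MOR-LPS and SAL-LPS remained (log2FC 3.77, adjusted p = 0.0432), where 1.9% of all genes were called. The 4 SAL-LPS calls also remained, where 2.37% were, but all 3 libraries are MOR-LPS, so no library of that comparison was left out. With the number group as a block, and also in limma-voom, 0 of these 4 SAL-LPS calls remained.

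After morphine, 1 of 36 hippocampal members rose, where 0.109% of genes were called higher and 0.358% lower. That was Msr1, at 0 in all 12 MOR-SAL libraries and up to 13.5 CPM in MOR-LPS with a median of 0.227 and 7 of 16 at 0 (log2FC 7.30, SE 1.45, at least 88.8-fold when pooled, adjusted p = 0.0223, permutation p = 0.00364). Replicate 15-3 gave 63.3% of these reads. The call was lost without number group 7 or 15, and without the 3 libraries high in microglial markers, all MOR-LPS (log2FC 4.53, adjusted p = 0.0778), where 0.00457% of all genes were called. Summed microglial markers ran up to 62.0 CPM in MOR-SAL and 408 CPM in MOR-LPS, with medians of 36.1 and 38.1 CPM. Oligodendrocyte markers had medians of 316 and 413 CPM and reached 954 and 4062 CPM, and astrocyte markers 128 and 125 CPM, reaching 225 and 783 CPM. Infiltrating myeloid markers had medians of 3.15 and 4.06 CPM and reached 6.70 and 95.0 CPM. Pericyte markers had 2.62 and 5.66 CPM, reaching 9.35 and 49.4 CPM.

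In the PFC 0 of 35 members were called by edgeR in SAL-LPS compared with SAL-SAL, as were 0% of 21729 genes higher and 0% lower. At an unadjusted p under 0.05 there were 4 members, 11.4% against 12.7% of all genes, and DESeq2 called 1, Lcn2 (log2FC 6.57, adjusted p = 0.0492), and 0.336% of all genes. Lcn2 was at 0 in all 10 SAL-SAL libraries and had reads in 6 of 10 SAL-LPS libraries, up to 7.04 CPM, at least 52.7-fold higher when pooled (edgeR adjusted p = 0.102). Of these PFC libraries, 1 of 10 in SAL-SAL and 4 of 10 in SAL-LPS were high in microglial markers. In MOR-LPS compared with MOR-SAL 1 of 35 members was called higher, where 0.0138% of genes were called higher and 0.0046% lower. Msr1 was at 0 in all 12 MOR-SAL libraries and had reads in 10 of 16 MOR-LPS libraries, with a median of 0.335 and a highest of 6.96 CPM (log2FC 7.53, SE 1.45, at least 94.1-fold when pooled, adjusted p = 0.0371, permutation p = 0.00118). It had reads in 1 of 10 SAL-LPS libraries, at 0.192 CPM, and none in SAL-SAL. MOR-LPS thus held 360 of its 362 reads, and it passed the count filter only through that group. The call held in 4 of the 17 fits that left out 1 number group each. Without the 13 libraries high in microglial markers, 7 of them MOR-LPS, it was lost while the log2FC was 7.38 (adjusted p = 0.211), and that fit called 0% of all genes. Summed microglial markers had medians of 26.8 CPM in MOR-SAL and 59.5 CPM in MOR-LPS, astrocyte markers 54.6 and 96.2 CPM and oligodendrocyte markers 320 and 444 CPM. In the same order pericyte markers had 2.42 and 8.08 CPM and glucocorticoid response genes 670 and 831 CPM. Infiltrating myeloid markers had 18.8 and 26.3 CPM, reaching 44.9 and 171 CPM. Of these Cd163 had a median of 15.8 CPM over all PFC libraries. Endothelial markers had 26.0 and 27.2, choroid plexus markers 24.7 and 18.0 and neuronal markers 5703 and 5339 CPM.

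In the striatum 2 of 36 members rose in SAL-LPS compared with SAL-SAL, where 0.00854% of 23426 genes were called higher and 0.00427% lower. Lcn2 had 1 read in the 13 SAL-SAL libraries and reads in 11 of 15 SAL-LPS libraries, with a median of 0.782 and a highest of 1.91 CPM (log2FC 5.64, SE 0.96, adjusted p = 0.00553, permutation p = 0.00014). Msr1 had 1 read in SAL-SAL and reads in 13 of 15 SAL-LPS libraries, with a median of 0.344 and a highest of 2.37 CPM (log2FC 4.94, SE 0.93, adjusted p = 0.0222). Its permutation p of 2e-05 is the smallest that the resamples can give. Both genes were thus present in most challenged libraries at a low level, with pooled ratios of 100.1 (counting interval 17.7 to 3981) and 65.3 (11.4 to 2606). Both calls remained without the 15 libraries high in microglial markers, of which 3 are SAL-LPS and 2 SAL-SAL, where 0.514% of all genes were called, and Lcn2 was lost in 5 and Msr1 in 7 of the 18 fits that left out a number group.

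After morphine, 7 of 36 striatal members rose, where 0.845% of genes were called higher and 0.542% lower. They were 3 of 5 effectors (Msr1, Lcn2, Icam1) and 1 each of the transcription and stress factors (Cebpd), the receptors and adaptors (Tlr2), the feedback inhibitors (Socs3) and the cytokines (Tnf). The members' median log2FC was 0.68, or 0.54 with bounds, compared with 0.11 over all genes tested. The reference group held 8 libraries, and its permutation tests were exact.

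Msr1 was at 0 in all 8 MOR-SAL libraries and had reads in 15 of 18 MOR-LPS libraries, with a median of 0.867 and a highest of 6.72 CPM (log2FC 7.60, SE 1.33, at least 35.0-fold, adjusted p = 0.00262, exact permutation p = 0.0018). Lcn2 had 2 reads in MOR-SAL and reads in 16 of 18 MOR-LPS libraries, with a median of 1.15 and a highest of 7.97 CPM (log2FC 5.93, SE 1.14, adjusted p = 0.00576, exact permutation p = 0.000707). Icam1 had a highest value of 0.189 CPM in MOR-SAL, and in MOR-LPS a median of 1.14 and a highest of 6.77 CPM with 17 of 18 libraries above 0 (log2FC 4.64, SE 1.07, adjusted p = 0.0235, exact permutation p = 0.000332). These 3 effectors were each detected in at least 15 of the 18 challenged striata.

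Cebpd was at 0 in all 8 MOR-SAL libraries and had a median of 0.715 CPM in MOR-LPS (log2FC 6.93, SE 1.35, at least 21.5-fold, adjusted p = 0.00763, exact permutation p = 0.000572). In the saline-exposed groups, however, Cebpd was present before challenge, with medians of 0.231 CPM in SAL-SAL and 0.292 in SAL-LPS. Tlr2, the receptor for bacterial lipoproteins, was at 0 in all MOR-SAL libraries and reached 7.74 CPM in MOR-LPS (log2FC 7.02, SE 1.79, at least 22.7-fold, adjusted p = 0.0371, exact permutation p = 0.0129), against 7 of 13 SAL-SAL libraries with reads, up to 0.400 CPM. Tnf, the cytokine, was likewise at 0 in MOR-SAL and up to 3.87 CPM in MOR-LPS with 7 of 18 at 0 (log2FC 5.79, SE 1.58, at least 10.7-fold, adjusted p = 0.0481, exact permutation p = 0.0272), and had reads in 3 of 13 SAL-SAL libraries. Socs3, which restrains JAK-STAT signaling, had medians of 0 CPM in MOR-SAL and 0.513 in MOR-LPS (log2FC 3.93, SE 1.08, adjusted p = 0.0481, exact permutation p = 0.0037). For Cebpd, Tlr2 and Tnf the MOR-SAL libraries lay at 0 where some SAL-SAL libraries did not, and the differences between those groups were not called (adjusted p of 0.180, 0.391 and 0.366).

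In the striatum summed microglial markers ran from 12.1 to 55.8 CPM in MOR-SAL (median 17.1) and from 16.4 to 398 CPM in MOR-LPS (median 43.4), and astrocyte markers had medians of 36.2 and 87.0 CPM. In the same order the medians were 294 and 590 CPM for oligodendrocyte markers, 21.5 and 29.7 CPM for infiltrating myeloid markers, 31.2 and 33.0 CPM for endothelial markers, 4.80 and 4.76 CPM for pericyte markers, 29.8 and 38.4 CPM for choroid plexus markers, 566 and 618 CPM for glucocorticoid response genes and 4908 and 4648 CPM for neuronal markers. Over all striatal libraries 1 gene carried most of the myeloid, endothelial and choroid plexus sums. These genes were Cd163 (median 18.0 CPM), Tek (21.3) and Clic6 (24.0). The next highest of each list were Ptprc (0.926), Slco1c1 (2.72) and Kl (3.33). These 3 sums are thus not read as amounts of a cell type. Without the 15 libraries high in microglial markers, 9 of them MOR-LPS, 0 of the 7 calls remained, and that fit called 0.0176% of all genes. The log2FC was then 6.16 for Cebpd, 5.56 for Msr1, 4.51 for Lcn2, 3.98 for Tnf, 3.44 for Socs3, 3.10 for Icam1 and 2.96 for Tlr2, all above 0 and below the values with all libraries, from fewer libraries. With 1 number group left out, Msr1 was called in all 18 fits, Cebpd and Lcn2 in 17, Icam1 in 15, Tlr2 in 11, Socs3 in 6 and Tnf in 3. Within MOR-LPS, Msr1 ran from 0 to 0.900 CPM in the 9 libraries up to 2 times the median of microglial markers and from 0.820 to 6.72 CPM in the 9 above it, and Lcn2 from 0 to 3.07 and from 0.656 to 7.97 CPM. The part of other cell types in these values was not tested.

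**Figure D3:**
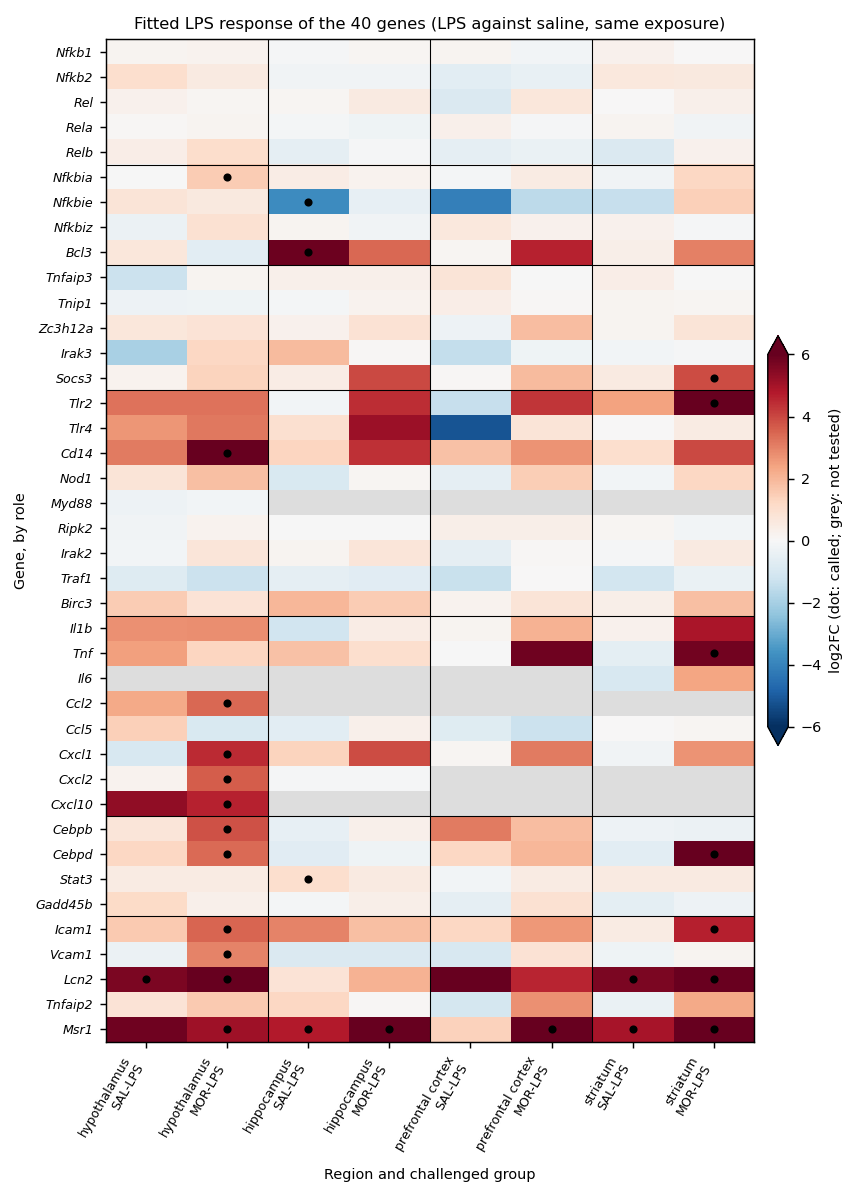
Fitted log2FC of all 40 members after LPS, by region and exposure, with the members grouped by role, colour for the log2FC and a mark on each call (adjusted p under 0.05). Calls number 1 and 12 in the hypothalamus, 4 and 1 in the hippocampus, 0 and 1 in the PFC and 2 and 7 in the striatum, without and with morphine.

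Comparisons of the exposures at the same challenge gave few calls. In MOR-SAL compared with SAL-SAL, edgeR called 0 of 39 members in the hypothalamus, where 1.44% of all genes were called, and 0 of 36, 0 of 35 and 0 of 36 in the hippocampus, PFC and striatum, where 0% of genes were called in each. At an unadjusted p under 0.05 there were 9, 4, 3 and 6 members, or 23.1%, 11.1%, 8.57% and 16.7%, against 17.3%, 10.3%, 10.1% and 11.5% of all genes. DESeq2 called 1 in the hypothalamus and 0 in the other regions, and of all genes 2.15%, 0.0321%, 0.0756% and 0.0257%. That 1 was Ccl5, a T-cell attractant, which was higher in MOR-SAL (log2FC 1.97, adjusted p = 0.0205 in DESeq2 and 0.0689 in edgeR). Hypothalamic Cxcl1 had reads in 3 of 11 SAL-SAL and 0 of 14 MOR-SAL libraries (adjusted p = 0.0541), and Nfkbia, given by group above, had a log2FC of -0.94 (SE 0.32, adjusted p = 0.0964).

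Between MOR-LPS and SAL-LPS, edgeR called 0 of 39 members in the hypothalamus, where 1.03% of genes were called, 0 of 35 in the PFC, where 0.0046% were called, and 0 of 36 in the striatum, where 0% were called. At an unadjusted p under 0.05 there were 6, 9 and 16 members, or 15.4%, 25.7% and 44.4%, against 13.9%, 13.0% and 11.2% of all genes, and DESeq2 called 0, 0 and 1, and 0.532%, 0.109% and 0.575% of all genes. Without the libraries high in microglial markers edgeR again called 0 in each, and 0.0609%, 0% and 0% of all genes. In the striatum 30 of 36 had a log2FC above 0, with a median of 0.72 compared with 0.03. The 1 that DESeq2 called was Relb, the subunit that pairs with p52 (log2FC 1.00, adjusted p = 0.0146), and its edgeR log2FC was 0.99 (SE 0.25, adjusted p = 0.0721). The fit with deviances adjusted for small counts, added after the data were seen, called 6 in the striatum (Relb, Cebpd, Tnf, Msr1, Tlr4 and Icam1) and 3 in the hypothalamus (Cebpd, Relb and Icam1), all higher in MOR-LPS, where that fit called 1.23% and 1.38% of all genes. As given above, 9 of the 18 striatal MOR-LPS libraries and 3 of the 15 SAL-LPS libraries were high in microglial markers.

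The interaction asks whether the LPS response itself differed between exposures. In the hypothalamus 2 of 39 members were called, where 3.8% of all genes were. The LPS log2FC was larger after morphine for Cxcl1 by 5.47 (SE 1.40, adjusted p = 0.0163) and for Nfkbia by 1.55 (SE 0.46, adjusted p = 0.0364). For Cxcl1 the fitted value rests on a group at 0, MOR-SAL, and on 7 reads in SAL-LPS. For Nfkbia, as given above, the median was lowest in MOR-SAL (9.88 CPM) and highest in MOR-LPS (24.4 CPM). Without the libraries high in microglial markers neither was called, with differences of 3.71 for Cxcl1 (adjusted p = 0.195) and 0.89 for Nfkbia (0.368), where 2.27% of all genes were called. Nfkbia was called in 9 of the 17 fits that left out 1 number group, and Cxcl1 in 16, all but that without number group 11. The other hypothalamic calls listed above for MOR-LPS were not shown to differ from the response without morphine.

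In the PFC 1 of 35 members was called in the interaction, where 1.78% of genes were. Tlr2 had reads in 1 of 10 SAL-SAL, 0 of 12 MOR-SAL, 0 of 10 SAL-LPS and 5 of 16 MOR-LPS libraries, up to 1.51 CPM (log2FC difference 5.70, SE 1.36, adjusted p = 0.0317), and the call was lost without the libraries high in microglial markers (4.26, adjusted p = 0.228), where 0% of all genes were. In the hippocampus edgeR called 0 of 36, where 2.35% of genes were called, and in the striatum 0 of 36, where 0.00854% were called. At an unadjusted p under 0.05 there were 5 and 13 members, or 13.9% and 36.1%, against 12.8% and 14.8% of all genes. DESeq2 called 0 in the hippocampus, where it called 0.0321% of all genes, and 2 in the striatum, where it called 0.763%, Cebpd (log2FC difference 6.32, adjusted p = 0.00704) and Icam1 (4.36, 0.0458).

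**Figure D4:**
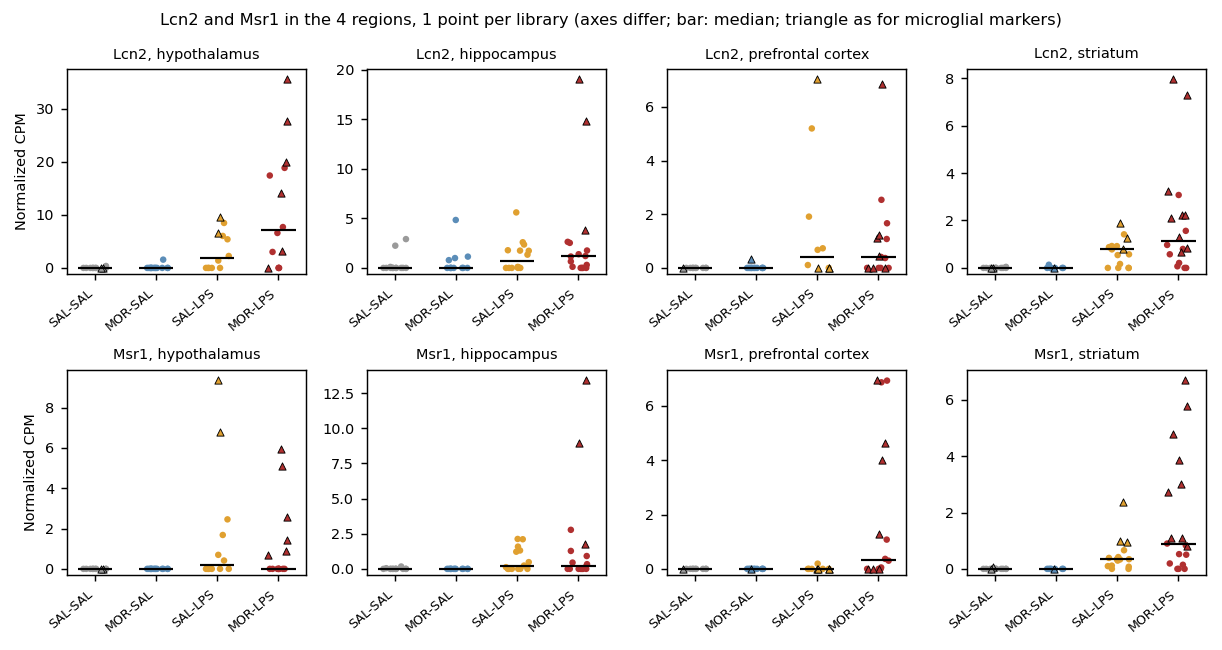
Normalized CPM of Lcn2 and Msr1 in each library of the 4 regions by group on linear axes that differ between panels, with each point 1 library, the bar the group median and triangles for libraries high in microglial markers. Striatal Msr1 has reads in 13 of 15 SAL-LPS and 15 of 18 MOR-LPS libraries, and in 1 of 13 SAL-SAL and 0 of 8 MOR-SAL libraries.

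Msr1 and Lcn2 were called most often, in 6 and 4 of the 8 LPS comparisons. The 6 include the PFC call of Msr1 after morphine, which passed the count filter only through MOR-LPS, and are 5 without it. Whether an LPS response, averaged over the exposures, differed between regions was tested for the 35 members with a total count above 10 in every region. Of these, 5 were called, where 4.13% of 19478 genes were. Lcn2 had a log2FC of 5.92 in the hypothalamus, 5.86 in the PFC and 5.57 in the striatum and 1.79 in the hippocampus (adjusted p = 0.00226). In the hippocampus Lcn2 had reads before challenge in 3 of 13 SAL-SAL and 4 of 12 MOR-SAL libraries, up to 4.84 CPM. Cebpd had log2FC of 2.34 in the hypothalamus, 3.09 in the striatum, 1.36 in the PFC and -0.41 in the hippocampus (adjusted p = 0.0129), and hippocampal Cebpd was also the most abundant, with a median of 5.81 CPM over all libraries compared with 0.203, 0.505 and 0.276 CPM in the hypothalamus, PFC and striatum. Nfkbie had -2.15 in the hippocampus and -2.80 in the PFC, and 0.70 and 0.16 in the hypothalamus and striatum (adjusted p = 0.00998). Bcl3 had 4.47 in the hippocampus and 0.23, 2.15 and 1.47 in the hypothalamus, PFC and striatum (adjusted p = 0.0246), and Tlr4 2.75 and 2.94 in the hypothalamus and hippocampus and -1.71 and 0.32 in the PFC and striatum (adjusted p = 0.00404). In the PFC the highest Tlr4 library was SAL-SAL replicate 10-3, at 18.0 CPM, against a median of 0 over all PFC libraries. As given above, most hippocampal SAL-LPS reads of Bcl3 came from replicate 1-4. Both values thus rest heavily on 1 library. The regions came from the same animals. In limma-voom with a correlation within animals 0 of 35 were called, as in limma-voom without it, where 0.149% and 0.128% of all genes were. With deviances adjusted for small counts 3 were called (Cebpd, Nfkbie and Cebpb) and 1.06% of all genes.

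Over the 20 comparisons within regions, 18 members were called at least once and 22 were not. All 5 NF-kB subunits were among the 22. The LPS log2FC of Nfkb1 lay between -0.17 and 0.24 in the 8 region and exposure combinations, that of Rela between -0.26 and 0.29, Rel (c-Rel) between -0.88 and 0.66, Nfkb2 (p100/p52) between -0.63 and 0.99 and Relb between -0.89 and 1.07. Of the IkB family, Nfkbiz (IkB-zeta) lay between -0.36 and 0.92, with an adjusted p of 0.0888 at its highest, in the hypothalamus after morphine. Of the feedback inhibitors, Tnip1 lay between -0.28 and 0.41, Tnfaip3 (A20) between -1.29 and 0.80, the RNase Zc3h12a (regnase-1) between -0.29 and 1.85 and the decoy kinase Irak3 between -1.95 and 1.90. Among the most abundant members Nfkb1, Rela, Ripk2 and Tnip1 thus stayed within 0.41 of 0 on the log2 scale, while abundant Nfkbia and Stat3 reached 1.54 and 1.02.

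Among the receptors and adaptors never called, Ripk2 lay between -0.22 and 0.36, the kinase Irak2 between -0.54 and 0.75, the receptor Nod1 between -0.91 and 1.80, Traf1 between -1.33 and 0.03 and Birc3 (cIAP2) between 0.23 and 1.99, with an adjusted p of 0.0597 for Birc3 in the striatum after morphine (log2FC 1.80, SE 0.52). Tlr4, the LPS receptor, had a log2FC of 5.14 (SE 1.34) in the hippocampus after morphine and just missed the threshold (adjusted p = 0.0517). Myd88 could be tested in the hypothalamus, with -0.31 and -0.14 without and with morphine. Of the remaining members, Il1b (interleukin-1 beta) lay between -1.13 and 4.90, Ccl5 between -1.27 and 1.41, the stress factor Gadd45b between -0.57 and 1.16, Tnfaip2 between -1.05 and 2.72, and Il6, which had enough reads in the striatum, at -0.97 and 2.36.

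Another 66 genes of the pathway were examined in the same fits, 64, 63, 58 and 64 of them tested in the hypothalamus, hippocampus, PFC and striatum. They are given with all libraries, beside the share of all genes called, and no permutation test was run for them. In hypothalamic SAL-LPS 1 was called higher (0.0693% of all genes), Saa3, an acute-phase apolipoprotein, which was at 0 in all 11 SAL-SAL libraries and had a median of 1.43 CPM in SAL-LPS (at least 54.6-fold when pooled, fitted log2FC 6.90, SE 1.31, adjusted p = 0.0118). After morphine 8 were called higher in the hypothalamus (4.1% of all genes), led by Saa3 (log2FC 5.85, adjusted p = 0.000239), the interleukin-6 receptor Il6ra (4.09, 0.00118) and the interleukin-1 receptor accessory protein Il1rap (1.07, 0.00927). Of the 8, Selp had all its 35 reads in MOR-LPS and passed the count filter only through that group. In MOR-SAL compared with SAL-SAL 3 were lower in the hypothalamus (1.44% of all genes called in either direction), Il1rap (log2FC -1.17, adjusted p = 0.0172), the inflammasome sensor Nlrp3 (-4.90, 0.0323, at least 3.58-fold from 7 reads) and Il6ra (-2.86, 0.0441). Il6ra had medians of 2.30 CPM in SAL-SAL, 0.198 in MOR-SAL, 0.738 in SAL-LPS and 4.63 in MOR-LPS, the same order of the morphine groups as Nfkbia. In the hypothalamic interaction 5 were higher, led by Il1rap (1.93, 0.00535), Il6ra (5.54, 0.00535) and the RNA sensor Tlr7 (7.39, 0.00809), and 1 lower, Traf3 (-1.02, 0.0419), where 3.8% of all genes were called.

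In hippocampal SAL-LPS 2 of these genes were called higher, Steap4 (log2FC 3.38, adjusted p = 0.0362, at least 15.9-fold) and the TNF receptor Tnfrsf1a (3.49, 0.0465), against 1.33% of all genes. Another 3 were called lower, against 1.22% of all genes, the oxysterol enzyme Ch25h (-4.57, 0.0273, at least 7.87-fold) and the chemokines Ccl3 (-3.36, 0.0337, at least 3.42-fold) and Ccl4 (-3.45, 0.0354, at least 3.76-fold). Each of these 3 was at 0 in SAL-LPS, from 23, 10 and 11 reads in SAL-SAL. Between MOR-LPS and SAL-LPS in the hippocampus 3 were higher, Ticam2 (3.98, 0.0212, at least 14.0-fold), Selp (4.20, 0.0323, at least 32.2-fold) and Tlr1 (4.33, 0.0347), and 1 lower, Tab2 (-0.53, 0.0383), where 2.73% of all genes were called. Ccl4 in SAL-LPS and Ticam2 passed the count filter only through the group where they were higher. In the hippocampal interaction 3 were higher, Ccl3 (4.98, 0.0158), Ccl4 (5.32, 0.0159) and Tlr6 (6.04, 0.0158), where 2.35% of all genes were called, and in that of the PFC, where 1.78% were, 5, led by Tlr5 (6.57, 0.0310), Selp (6.42, 0.0321) and Tlr1 (6.33, 0.0390). In the striatum 7 were called higher after morphine (0.845% of all genes), led by Tlr7 (4.47, 0.0190), Csf1 (1.77, 0.0366) and Nfe2l2 (1.71, 0.0433). In the other 11 comparisons edgeR called 0 of them, with 5 to 14 at an unadjusted p under 0.05. These are 8.62% to 24.1% of those tested, against 10.1% to 14.8% of all genes. Calls of low genes in this list share the limits given for the members.

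**Figure D5:**
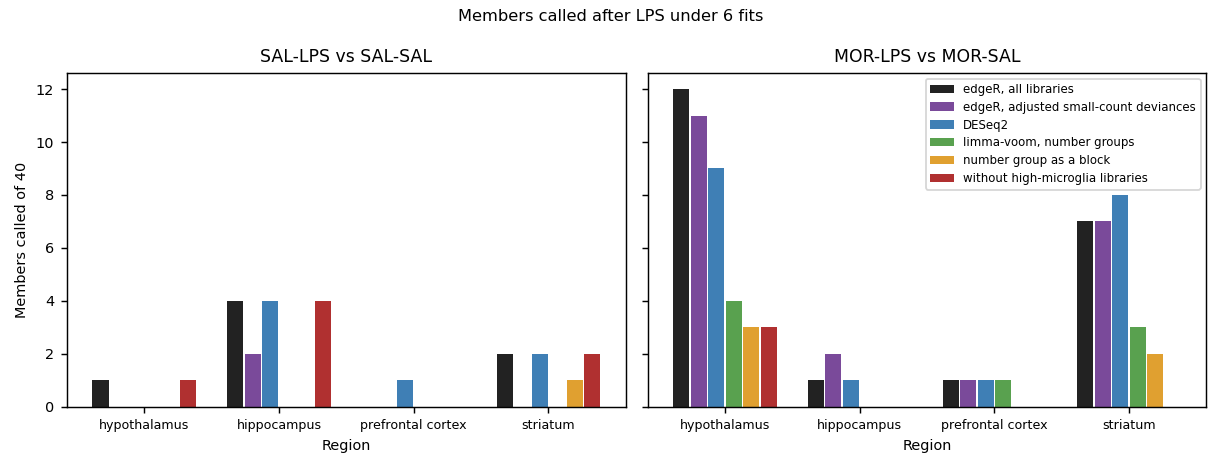
Number of members called in each region's LPS comparisons under the reported fit and the alternatives, with each bar 1 of 6 fits and the axis a count of members. For hypothalamic MOR-LPS vs MOR-SAL the reported fit calls 12 and the fits without libraries high in microglial markers and with the number group as a block call 3 each, from fewer libraries in the former.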

How the data were processed

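Per the labels and the study's methods, the authors trimmed reads with Trim Galore 0.6.7, aligned them to mm10 with STAR 2.7.10a, which counted reads per gene, checked the counts with HTSeq 0.12.4 and tested them with DESeq2 1.40.2. The deposited raw counts, whole reads per gene without normalization, were used here. The deposited CPM values were not used.

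Groups came from the labels. Each region was fitted in edgeR 4.0.16 (R 4.3.3) with TMM, genes with a total count above 10, and the 4 conditions and sex as terms, using estimateDisp, glmQLFit and glmQLFTest. Regions were compared in 1 fit of all libraries. Alternatives were DESeq2 1.42.0, DESeq2's size factors in edgeR, filterByExpr, low-depth libraries left out, limma 3.58.1 (voom) with a correlation within number groups, the number group as a block (without sex), and each number group left out. Chosen after seeing the data were fits without libraries high in microglial markers or against their labelled sex, deviances adjusted for small counts, and permutation tests with a pseudocount of 0.5 CPM and 100000 resamples (exact for striatal MOR-SAL). On counts simulated for the hypothalamus, edgeR's default and the adjusted deviances were tested. The default gave too many small p-values, which led to the last additions.

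Each replicate label was taken as 1 animal. Its first number (number group) is not explained in the labels and was used only in alternatives. No pair of libraries agreed within sampling noise. Counting intervals (95%) and floors (3 counts) cover counting error only. Positions are from GENCODE release M21 of mm10.

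By the rule for named genes, every member was named, values by group were given for called members and for the 3 highest per length in each region, and of the other pathway genes the 3 with the smallest adjusted p per direction were named in each comparison with a call. Its promoter part, for the 4 members called after LPS most often (Msr1, Lcn2, Cebpd and Icam1), was not followed: Msr1 and Cebpd were not in the promoter table, Lcn2 and Icam1 held no match, and matches of 6 other called members were printed instead, chosen after seeing the data. Members and lists were chosen with earlier results of these data known.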

Additional observations from a re-analysis of the deposited data

Results flagged for a closer look

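Single libraries far from the rest of their group were looked for in the groups of 8 or 10 libraries, over the summed microglial markers, the called members and the 3 highest members per length of the region. Of 13 such sets of values 4 held one. Dixon's critical values hold for normally distributed values, whereas these CPM were skewed and not transformed, and some sets share libraries. How many chance would give is thus not known. PFC Tnip1 reached 61.2 CPM in 1 SAL-SAL library, and striatal Nfkbia 34.3 CPM in 1 MOR-SAL library. Summed microglial markers reached 406 CPM in 1 PFC SAL-SAL library and 55.8 CPM in 1 striatal MOR-SAL library. Each of these lay farther from its nearest neighbour, relative to the range of its group, than Dixon's critical value.

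In 3 cases the LPS response differed between the exposures by a test of the difference itself (edgeR interaction). The LPS log2FC after morphine minus that without was 5.47 for Cxcl1 and 1.55 for Nfkbia in the hypothalamus and 5.70 for Tlr2 in the PFC. These are 2 of 39 and 1 of 35 members, where 3.8% and 1.78% of all genes were called, and none of the 3 was called without the libraries high in microglial markers. In 5 members the LPS response differed between regions, with adjusted p of 0.0246 for Bcl3, 0.0129 for Cebpd, 0.00226 for Lcn2, 0.00998 for Nfkbie and 0.00404 for Tlr4, where 4.13% of all genes were called. None of the 3 was called with the number group as a block, and none of the 5 in limma-voom with or without a correlation within animals. The part of the libraries high in microglial markers in the regional differences was not tested.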

How the results depend on the processing

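Counts of members called were recomputed under each alternative. Most are given here without the share of all genes that the same fit called. They therefore do not tell a fall among the members from one over all genes. The labels do not say what a number group is. The deviations of its challenged and unchallenged libraries correlated above 0.1 in 1 of 15 groups in the hypothalamus (range -0.0811 to 0.2334), 6 of 15 in the hippocampus (-0.3322 to 0.2426), 5 of 11 in the PFC (-0.3427 to 0.4295) and 6 of 12 in the striatum (-0.4091 to 0.636), so the libraries are not read as paired. With the number group as a block (replicate block) the counts went from 1 to 0 and from 12 to 3 in the hypothalamus without and with morphine, and from 4 to 0 and 1 to 0 in hippocampal libraries, from 1 to 0 in the PFC with morphine, from 2 to 1 and 7 to 2 in the striatum, and from 2 to 0 and 1 to 0 for the hypothalamic and PFC interactions. Without libraries high in microglial markers the counts with morphine fell to 3 in the hypothalamus and 0 in the other regions and those of both interactions to 0. With deviances adjusted for small counts, SAL-LPS counts were 0 in the hypothalamus, 2 in the hippocampus and 0 in the striatum, hippocampal MOR-LPS 2, hypothalamic MOR-SAL vs SAL-SAL 1, challenged morphine against challenged saline animals 3 in the hypothalamus and 6 in the striatum, and the PFC interaction 0. With limma-voom, hypothalamic counts were 0, 4 and 0 for SAL-LPS, MOR-LPS and the interaction, 0 in each hippocampal comparison and in the PFC interaction, and 0 and 3 in the striatum. With filterByExpr they were 5 in hypothalamic MOR-LPS, where the filter removed the other 7 of the 12, and 0 in the hypothalamic and PFC interactions, in PFC MOR-LPS and in each hippocampal comparison, where of these calls only hippocampal Stat3 and hypothalamic Nfkbia were still tested. Of the 12 hypothalamic MOR-LPS calls DESeq2 called 7 again and gave no adjusted p for 4, and adjusted deviances called 8 again. The call of Cxcl1 was lost with adjusted deviances, in limma-voom, with the block and without libraries high in microglial markers. DESeq2 gave 0 in hypothalamic SAL-LPS, with no adjusted p for Lcn2, 1 in hypothalamic MOR-SAL vs SAL-SAL, 1 in that interaction, 1 in PFC SAL-LPS, 0 in the PFC interaction, 0 in hippocampal and 1 in striatal MOR-LPS vs SAL-LPS, and 2 in the striatal interaction. Low-depth libraries left out gave 1 in hypothalamic MOR-SAL vs SAL-SAL and in the hippocampal interaction and 0 in PFC MOR-LPS, DESeq2's size factors 1 in the hippocampal interaction, and libraries against their labelled sex left out 1 in the hypothalamic interaction and 0 in PFC MOR-LPS. Regional differences fell from 5 to 3 with adjusted deviances and were 0 in limma-voom both with the animal as a block and without it, the latter chosen after seeing the data.

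With 1 number group left out the counts ran from 0 to 1, 8 to 14, 0 to 1, 0 to 0 and 0 to 3 in the hypothalamus for the LPS responses without and with morphine, morphine without and with LPS, and the interaction, and in that order 0 to 4, 0 to 2, 0 to 0, 0 to 2 and 0 to 2 in hippocampal, 0 to 0, 0 to 1, 0 to 0, 0 to 0 and 0 to 2 in PFC and 0 to 2, 1 to 7, 0 to 0, 0 to 1 and 0 to 1 in striatal libraries. Of single members, Lcn2 and Cd14 in hypothalamic MOR-LPS were called in every alternative that could be run for them, 9 and 8, and without each of 17 number groups. Hypothalamic Msr1 after morphine had no reads left in either group without libraries high in microglial markers, so its fitted -0.057 there, against 5.07, is no measured change. The cause of the changes was not tested. Low counts limit most members.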

Other observations

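The libraries in which members were highest were spread unevenly over animals, with 50 of the 71 replicate labels holding at least 1 highest value. Over the 4 regions there were 146 pairs of a tested member and a region, and in 88 of them the highest library was a MOR-LPS library and in 87 a library high in microglial markers, which make up 41 of the 208 libraries. MOR-LPS made up 14 of 51 libraries in the hypothalamus, 16 of 55 in the hippocampus, 16 of 48 in the PFC and 18 of 54 in the striatum. The same counts over all genes were not made. Replicate 14-4 held the highest value in 21 pairs over 3 regions and replicate 15-3 in 20 pairs over 4 regions, both MOR-LPS. The 41 libraries came from 23 animals, of which 13 were high in 1 region, 4 in 2, 4 in 3 and 2 in all 4. The 2 animals high in all 4 regions were MOR-LPS females, replicates 15-3 and 7-1, and the SAL-SAL female 9-4 was high in 3. By sex, 5 of the 6 such MOR-LPS libraries in the hypothalamus, 3 of 3 in the hippocampus, 5 of 7 in the PFC and 6 of 9 in the striatum were from animals labelled female. No test was made of these counts, and regions of 1 animal are not independent.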
